A study of Mus musculus with 6 samples.

Results

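Matrix metalloproteinases (MMPs) and their tissue inhibitors (TIMPs) were examined in tumor endothelial cells (ECs) from WT and Apelin-KO mice. The set holds 10 genes taken by gene symbol from 24346 symbols in each sample: the MMP genes Mmp2, Mmp3, Mmp9, Mmp12, Mmp13, Mmp14 and Mmp19, and the inhibitor genes Timp1, Timp2 and Timp3. They were taken as members of a gene family, with no value used in the rule. The 3 WT and the 3 Apelin-KO samples came from C57BL/6 mice with subcutaneous tumors of MC38, a mouse colon carcinoma line. The mice were 8 to 10 weeks old, and the tumors were taken on day 19. The Apelin-KO group lacked the ligand Apelin in the whole animal, not in ECs alone. All 6 sample titles also name saline. ECs were sorted from the dissociated tumors as CD31 positive and CD45 negative cells, and the labels do not say whether each sample came from a separate mouse, so that the errors below measure the spread between samples.

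MMPs are zinc-dependent proteases that are made as inactive precursors and cut collagens, laminins, elastin and other matrix proteins, as well as surface proteins and growth factor stores. Secreted MMPs act in the matrix, whereas membrane-type MMPs stay on the cell surface. TIMPs bind the active site of MMPs and block it, and TIMP2 also helps the membrane-type enzyme MT1-MMP to activate the MMP2 precursor. In growing vessels, ECs use these enzymes to loosen the basement membrane and to move into the surrounding tissue.

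The values are FPKM, read numbers scaled to transcript length and to the mapped reads of the sample, which puts genes of different length on one scale. That scale did not hold for every gene, since Gapdh and Ppia, which nearly all cells express strongly, reached at most 0.433 and 0.411 FPKM in any sample. Low values and the order of genes are therefore given as listed in the files. The summed FPKM lay between 489396 and 529018 per sample, and the depth, estimated from the steps of the low values, between 8910000 and 10080000 reads. The targeted gene, Apln, was 457 ± 40.7 FPKM in WT and 17.3 ± 7.20 FPKM in Apelin-KO ECs (SD, n = 3 each), and it was the 1 gene of all tested with an adjusted p-value under 0.05 in limma (0.00747). All 12 endothelial marker genes passed the filter used below and were lower in WT ECs by log2 fold change, 4 of them at an unadjusted p-value under 0.05. Their sum lay between 3697 and 4422 FPKM in WT ECs and between 4561 and 4837 FPKM in Apelin-KO ECs. Markers of other cells were present too. The 12 macrophage markers, which include Ptprc (CD45), summed to between 224 and 854 FPKM in WT ECs and between 90.6 and 270 FPKM in Apelin-KO ECs. The 8 fibroblast markers summed to between 198 and 343 FPKM in WT ECs and between 131 and 203 FPKM in Apelin-KO ECs. The 8 pericyte markers summed to between 136 and 178 FPKM in WT ECs and between 184 and 211 FPKM in Apelin-KO ECs. The 6 neutrophil markers found summed to at most 3.37 FPKM in any sample, with Cxcr2 at 0 throughout. Among the 8 epithelial markers listed for tumor cells, Krt20 made up nearly all of a sum of at most 20.8 FPKM. Epcam reached at most 0.264 FPKM and Cldn3 was at 0 throughout. Whether these genes mark MC38 cells was not tested.

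The genes lie at several places of the GRCm38 (mm10) genome. Mmp14 is on chromosome 14 (54431612-54445364, plus strand), Mmp2 on chromosome 8 (92827291-92853420, plus strand) and Mmp9 on chromosome 2 (164940780-164955850, plus strand). Mmp19 is on chromosome 10 (128790910-128800824, plus strand). Mmp13 (7272514-7283331), Mmp12 (7344381-7369499) and Mmp3 (7445822-7455975) share a cluster of 8 MMP genes on chromosome 9 that spans 309 kb. Timp1, on chromosome X (20870166-20874735, plus strand), lies inside Syn1 on the opposite strand, and Timp3, on chromosome 10 (86300372-86349506, plus strand), lies inside Syn3 on the opposite strand. Timp2 is on chromosome 11 (118301069-118355740, minus strand). The host genes Syn1 and Syn3, which encode synapsins of neurons, reached at most 0.0990 and 0.215 FPKM in any sample. The library was stranded, but the strand setting of the counting is not given in the sources used here, and for Mmp12, Mmp19, Timp1 and Timp3 reads of a gene on the other strand could be counted if strand was ignored. Timp2 contains Cep295nl (118332360-118342500) on its own strand, an overlap that strand does not resolve, and Cep295nl was not analysed here.

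The bases before the gene starts are shown to describe the genes of the chromosome 9 cluster beside Mmp14 and the TIMPs. The RefSeq (GRCm38.p6) promoter sequences used here covered 7 of the 10 genes, and those of Mmp2, Mmp9 and Mmp19 were not analysed here. In the 250 bases before each start, both strands were searched for 3 motifs. The AP-1 element was written as TGANTCA, where N is any base. The GC box, which Sp1 factors bind, was written as GGGCGG. The TATA box was written as TATAAA. The last 60 bases before the start follow, 5′ to 3′ on the strand of the gene, for the 5 windows that overlapped no annotated exon, with matches to any of these motifs in capitals.
Mmp3 (chr9:7445762-7445821): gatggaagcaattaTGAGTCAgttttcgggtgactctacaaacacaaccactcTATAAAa
Mmp12 (chr9:7347314-7347373, before the second of its 2 RefSeq starts): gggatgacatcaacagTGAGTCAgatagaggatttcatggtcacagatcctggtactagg
Mmp13 (chr9:7272454-7272513): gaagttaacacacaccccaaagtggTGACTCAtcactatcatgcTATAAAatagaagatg
Mmp14 (chr14:54431538-54431597): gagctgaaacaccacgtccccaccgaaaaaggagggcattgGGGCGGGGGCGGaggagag
Timp1 (chrX:20870106-20870165): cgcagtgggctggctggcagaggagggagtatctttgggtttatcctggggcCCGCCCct
The AP-1 letters were found before Mmp3, Mmp13 and the second start of Mmp12, beginning at positions -46, -35 and -44 from the start. They were not found before the first start of Mmp12 or before Mmp14, Timp1, Timp2 and Timp3. Of all 32851 RefSeq promoter windows of 250 bases, 6.75% held them. The TATA box letters occurred before Mmp3 and Mmp13 and in 12.4% of all windows. The GC box letters occurred before Mmp14, Timp1, Timp2 and Timp3, and in 32.7% of all windows. None of the chromosome 9 genes shown had a GC box match. G and C made up 37.6% to 40.4% of the 250 bases before Mmp3, Mmp12 and Mmp13, against 54.4% to 68.0% before Mmp14 and the TIMPs. Mmp3, Mmp12 and Mmp13 are neighbours in 1 cluster, and no relation between these letters and the levels below was tested. A match describes the letters of the window and was not tested as a binding site.

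By level, the genes fell into a group above 5 FPKM in every sample and a group that reached at most 1.49 FPKM in any sample. In WT ECs the order of the means was Mmp14, Timp3, Timp2, Timp1, Mmp2 and Mmp9, followed by Mmp13, Mmp3, Mmp19 and Mmp12. The ranges of neighbours in this order overlapped between Mmp14 and Timp3, between Timp1 and Mmp2, between Mmp2 and Mmp9, and among Mmp13, Mmp3 and Mmp19. The first 6 places had the same order of means in Apelin-KO ECs. There the ranges overlapped between Mmp14 and Timp3, between Timp2 and Timp1 and between Mmp2 and Mmp9. Mmp14 was above Timp3 in 2 of the 3 Apelin-KO samples, and Timp2 was above Timp1 in 2 of the 3. Genes averaging 1 FPKM or more were compared between genotypes by limma, as WT minus Apelin-KO of log2(FPKM + 1), which took 6 of the 10 genes. None of these 6 had an adjusted p-value under 0.05 in limma, against 0.00912% of all 10964 genes tested. At an unadjusted p-value under 0.05, 2 of the 6 passed, Mmp9 and Timp2, both higher in WT ECs, where 9.42% of all genes passed, 5.17% with a higher and 4.25% with a lower level in WT ECs. The groups overlapped for all 6, whereas they did not overlap for 14.4% of all genes tested, 6.61% with WT above and 7.77% with WT below Apelin-KO. The median log2 fold change was 0.39 for the 6 genes and -0.01 for all genes tested. With 3 samples against 3, an exact two-sided permutation test cannot give a p-value below 0.1.

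**Figure D1:**
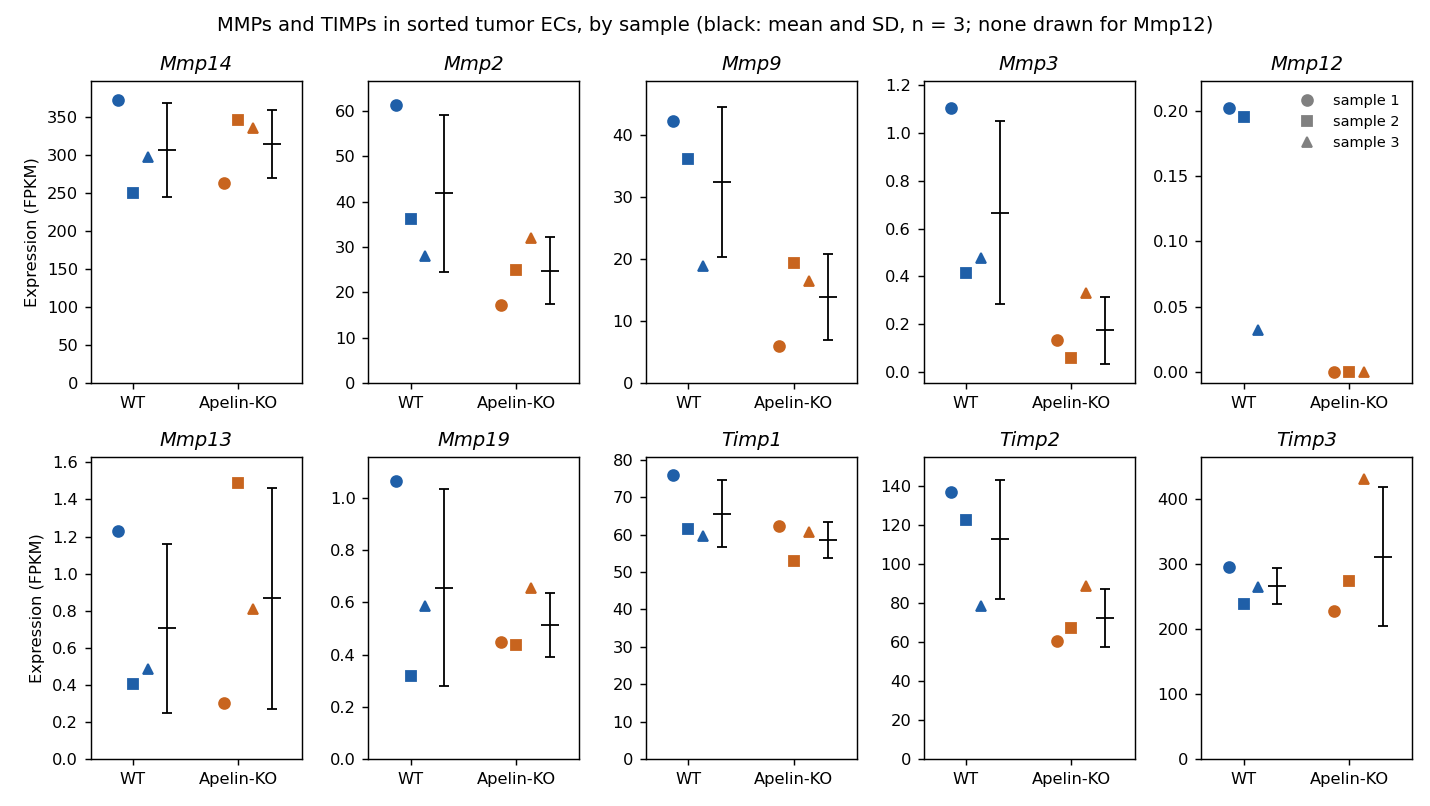
Expression in FPKM of the 10 MMP and TIMP genes in each WT (blue) and Apelin-KO (orange) sample, with one panel and one vertical scale per gene, and the mean and SD of 3 samples in black except for Mmp12. WT 1 was the highest sample for 8 of the 10 genes, and Mmp12 was listed at 0 in all 3 Apelin-KO samples.

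Mmp14 encodes MT1-MMP, the membrane-type collagenase that sits on the surface of sprouting ECs and activates the MMP2 precursor. It was the most highly expressed MMP in every sample, at 373, 250 and 298 FPKM in WT 1, 2 and 3 and 263, 346 and 336 FPKM in Apelin-KO 1, 2 and 3. The means were 307 ± 61.8 FPKM in WT and 315 ± 45.2 FPKM in Apelin-KO ECs (SD, n = 3 each). The samples of both genotypes were mixed, with the highest and the lowest value both in WT ECs. The log2 fold change was -0.05 (95% interval -0.47 to 0.38, adjusted p = 0.953 from limma), so that differences within this interval were not resolved by these samples. The sign turned when WT 2, Apelin-KO 2 or Apelin-KO 3 was left out. By Pearson correlation of log2(FPKM + 1) over the 6 samples, the genes most like Mmp14 were Cep250 (r = 0.991), 1110004F10Rik (r = 0.987) and Cog6 (r = 0.987). With 6 points that share their depth and composition, 25 of the other 10963 genes had r above 0.95, and nothing was read from these names.

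The gelatinases Mmp2 and Mmp9 encode enzymes that cut denatured collagen and the type IV collagen of basement membranes. Mmp9, which is abundant in myeloid cells as well as in activated ECs, was 42.2, 36.1 and 18.9 FPKM in WT 1, 2 and 3 and 6.08, 19.4 and 16.4 FPKM in Apelin-KO 1, 2 and 3. Apart from WT 3, which lay just below Apelin-KO 2, every WT sample was higher than every Apelin-KO sample, and Apelin-KO 1 stood lowest. The mean in Apelin-KO ECs was 43.0% of that in WT ECs, the largest difference among the 6 genes tested. The log2 fold change was 1.22 (SE 0.45, unadjusted p = 0.0298, limma adjusted p = 0.513), and an exact two-sided permutation test gave p = 0.2. Mmp9 was among the 0.766% of all genes tested that differed by over 2-fold towards WT at an unadjusted p-value under 0.05, while 0.0821% differed so towards Apelin-KO. Those towards WT numbered 84 genes, and 44 without WT 1, 28 without WT 2, 226 without WT 3, 30 without Apelin-KO 1 and 21 with the variance of each gene alone. The limma fit no longer called Mmp9 at 0.05 before adjustment without WT 1 (unadjusted p = 0.0901), WT 2 (unadjusted p = 0.0800) or Apelin-KO 1 (unadjusted p = 0.0656), or with its own variance alone (unadjusted p = 0.105), and its adjusted p ranged from 0.267 to 0.939 over all 14 alternatives. Its log2 fold change was 0.75 without Apelin-KO 1 and 1.56 without WT 3.

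The other gelatinase, Mmp2, which fibroblasts make in large amounts, was 61.2, 36.3 and 28.0 FPKM in WT 1, 2 and 3 and 17.3, 24.9 and 32.1 FPKM in Apelin-KO 1, 2 and 3. WT 1 was far above the others, while WT 3 lay below Apelin-KO 3. The mean in Apelin-KO ECs was 59.2% of that in WT ECs. The log2 fold change was 0.70 (SE 0.32, limma adjusted p = 0.542), and it was 0.39 without WT 1. The groups overlapped, and the difference did not pass the test.

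Timp2, whose product inhibits MMPs and also bridges MT1-MMP and the MMP2 precursor, was 137, 123 and 78.5 FPKM in WT 1, 2 and 3. In Apelin-KO 1, 2 and 3 it was 60.6, 66.9 and 88.8 FPKM. Here too WT 1 and WT 2 were above all Apelin-KO samples and WT 3 was below Apelin-KO 3. The mean in Apelin-KO ECs was 64.0% of that in WT ECs, and the log2 fold change was 0.62 (SE 0.24, unadjusted p = 0.0353, limma adjusted p = 0.515). The limma fit no longer called Timp2 at 0.05 before adjustment without WT 1 (unadjusted p = 0.112), WT 2 (unadjusted p = 0.0991), Apelin-KO 1 (unadjusted p = 0.108) or Apelin-KO 2 (unadjusted p = 0.0927). Nor did limma call it with its own variance alone (unadjusted p = 0.103) or with the replicate block (unadjusted p = 0.0780). The adjusted p of Timp2 in limma ranged from 0.172 to 0.939 over all 14 alternatives. Its log2 fold change was 0.46 without WT 1 and 0.86 without WT 3. The exact two-sided permutation test gave p = 0.2 for Timp2.

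Timp1, a secreted inhibitor that binds the MMP9 precursor, varied little. It was 75.8, 61.5 and 59.5 FPKM in WT 1, 2 and 3 and 62.2, 53.0 and 60.6 FPKM in Apelin-KO 1, 2 and 3. WT 1 was the highest and Apelin-KO 2 the lowest, with the other 4 close together, and the log2 fold change was 0.16 (95% interval -0.15 to 0.46, adjusted p = 0.730 from limma). The coefficient of variation of Timp1 was 13.6% in WT ECs and 8.39% in Apelin-KO ECs, while that of Mmp9 was 37.3% and 50.0%. Timp3, an inhibitor that stays bound to the matrix and also blocks VEGF from its receptor VEGFR2, was 295, 239 and 264 FPKM in WT 1, 2 and 3. In Apelin-KO 1, 2 and 3 it was 228, 273 and 432 FPKM, so that Apelin-KO 3 stood apart. The log2 fold change of Timp3 was -0.18 (95% interval -0.73 to 0.37, adjusted p = 0.838 from limma), and without Apelin-KO 3 it was 0.09, in the other direction. The genes most like Timp3 by the same correlation were Wipf1 (r = 0.991), Hnrnpdl (r = 0.989) and Rabgap1 (r = 0.989), with 76 of 10963 genes above 0.95.

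**Figure D2:**
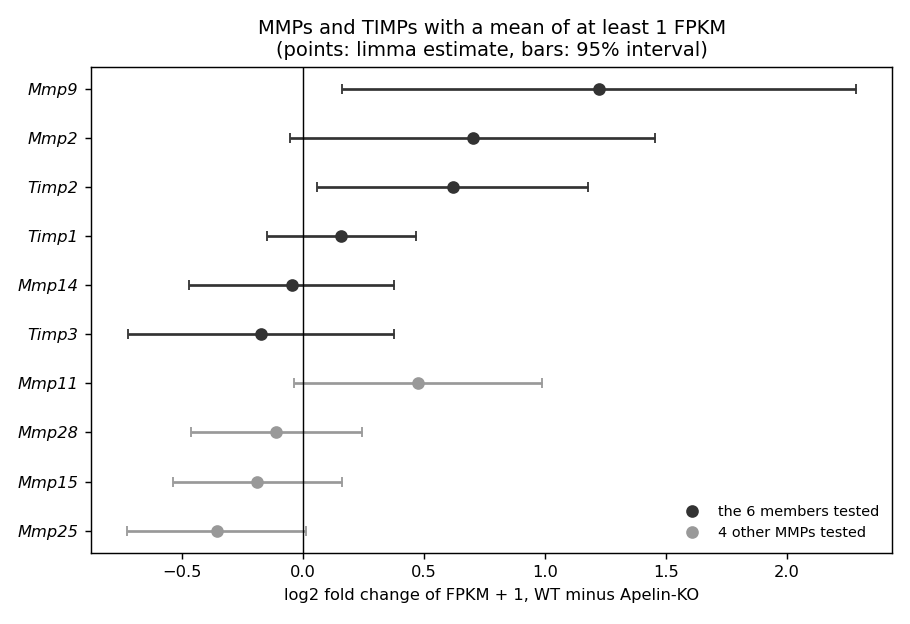
Log2 fold change of FPKM + 1, WT minus Apelin-KO, with 95% intervals from limma, for the 6 genes of the set (black) and 4 other MMP genes (grey) that averaged 1 FPKM or more. The intervals of Mmp9 and Timp2 lie above 0 before adjustment over all genes, and the other 8 include 0.

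The remaining 4 MMP genes had a mean under 1 FPKM and were not tested in the comparison above. Mmp3 encodes stromelysin-1, which cuts many matrix proteins and activates other MMPs. It was 1.11, 0.416 and 0.477 FPKM in WT 1, 2 and 3 and 0.133, 0.0610 and 0.330 FPKM in Apelin-KO 1, 2 and 3. From the length of its single annotated transcript, these values correspond to about 17.8, 5.94 and 6.95 reads for WT 1, 2 and 3. For Apelin-KO 1, 2 and 3 they correspond to about 1.97, 0.985 and 4.95 reads. Every WT sample was above every Apelin-KO sample, on few reads. Mmp12, the elastase of macrophages, was 0.202, 0.195 and 0.0320 FPKM in WT 1, 2 and 3 and was listed at 0 in each Apelin-KO sample. Multiplied by the estimated depth, the WT values stood to each other as 6.97 to 5.97 to 1. Its transcripts differ in length, so that no number of reads is given.

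Among the 5377 genes with a mean above 0 and under 1 FPKM, 9.08% had groups that did not overlap. In 6.71% all WT samples were above all Apelin-KO samples, as for Mmp3 and Mmp12, and 0.893% were above 0 in every WT sample and listed at 0 in every Apelin-KO sample, as Mmp12 was. A value of 0 in these files need not mean an absent transcript, since Gapdh was listed at 0 in 2 of the WT samples. When limma was run on all genes above 0 in any sample, the log2 fold changes were 0.49 for Mmp3 (unadjusted p = 0.0346, adjusted p = 0.527) and 0.19 for Mmp12 (unadjusted p = 0.0589, adjusted p = 0.567). These fold changes understate low genes because 1 was added to each FPKM.

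Mmp13, the main collagenase of mice, was 1.23, 0.403 and 0.483 FPKM in WT 1, 2 and 3 and 0.301, 1.49 and 0.810 FPKM in Apelin-KO 1, 2 and 3. Mmp19, a secreted MMP, was 1.06, 0.319 and 0.588 FPKM in WT 1, 2 and 3 and 0.450, 0.436 and 0.654 FPKM in Apelin-KO 1, 2 and 3. For both genes the samples of the 2 genotypes were mixed. An antisense gene, Gm47093, covers Mmp19 on the other strand, and Tmem198b overlaps its 3′ end there. Tmem198b was far above Mmp19, at 23.1, 24.4 and 25.5 FPKM in WT 1, 2 and 3 and 28.0, 28.2 and 33.9 FPKM in Apelin-KO 1, 2 and 3, and its part in the values of Mmp19 was not tested. None of the 8 MMP genes of the chromosome 9 cluster reached a mean of 1 FPKM, the highest single value was the 1.49 FPKM of Mmp13, and Mmp1b and Mmp27 were listed at 0 in all 6 samples.

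Added up per sample, the MMP genes of the set came to 480, 324 and 347 FPKM in WT 1, 2 and 3 and to 288, 392 and 387 FPKM in Apelin-KO 1, 2 and 3. The TIMP genes came to 508, 423 and 402 FPKM in WT 1, 2 and 3 and to 351, 393 and 581 FPKM in Apelin-KO 1, 2 and 3. The ratio of MMP to TIMP expression was 0.857 ± 0.0900 (SD, n = 3) in WT ECs and 0.828 ± 0.167 (SD, n = 3) in Apelin-KO ECs, and its ranges overlapped. Mmp14 made up 77.2% to 86.0% of the MMP sum in WT ECs and 87.0% to 91.6% in Apelin-KO ECs, and the gelatinases Mmp2 and Mmp9 together made up 13.5% to 22.4% in WT ECs and 8.13% to 12.5% in Apelin-KO ECs. Timp2 made up 19.5% to 29.0% of the TIMP sum in WT ECs and 15.3% to 17.3% in Apelin-KO ECs. Timp3 made up 56.5% to 65.7% in WT ECs and 65.0% to 74.3% in Apelin-KO ECs, and Timp1 made up 14.5% to 14.9% in WT ECs and 10.4% to 17.7% in Apelin-KO ECs. The shares of Mmp14, of the gelatinases and of Timp2 did not overlap between the genotypes, whereas those of Timp3 and Timp1 did. Mmp3, Mmp12, Mmp13 and Mmp19 together made up at most 0.751% of the MMP sum in any sample. The shares of Mmp14 and of the gelatinases therefore mirror each other and are 1 observation. All these shares were looked at after the values of the single genes were known and are given as a description with no test.

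**Figure D3:**
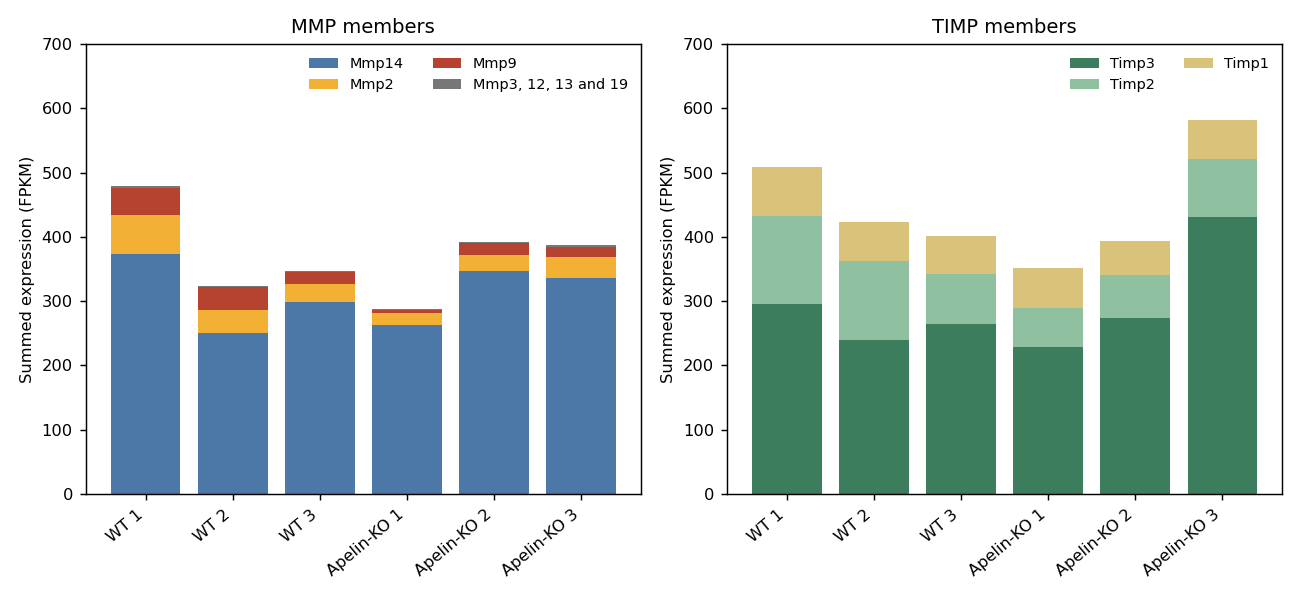
FPKM of the MMP genes (left) and the TIMP genes (right) summed in each of the 6 samples, with bars that start at 0 and colors for the genes. Mmp14 and Timp3 fill most of each bar, and the gelatinases take a smaller share in the 3 Apelin-KO samples.

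The samples with the highest Mmp9, Mmp2 and Timp2 also had the highest sums of macrophage and fibroblast markers, but not of pericyte markers. The sum of epithelial markers, nearly all Krt20, was highest in Apelin-KO 3 at 20.8 FPKM. Cdh1 of the same list went the other way on low values. It was highest in WT 2 and WT 1, at 0.289 and 0.209 FPKM, and at most 0.200 FPKM in Apelin-KO ECs. WT 1 and WT 2 had the highest sums of macrophage markers, 471 and 854 FPKM, and the highest Mmp9, and Apelin-KO 1 had the lowest sum, 90.6 FPKM, and the lowest Mmp9. In WT 3, Apelin-KO 2 and Apelin-KO 3 these markers summed to 224, 270 and 253 FPKM, and Mmp9 was nearly level. All 12 macrophage markers were higher in WT ECs by log2 fold change, 7 of them at an unadjusted p-value under 0.05 and 0 at an adjusted p-value under 0.05 in limma. Their median log2 fold change was 1.25. Among the macrophage markers, Fcgr1 was 2.88 ± 1.30 FPKM in WT and 0.767 ± 0.292 FPKM in Apelin-KO ECs (SD, n = 3 each), and its groups did not overlap. The groups of the other 11 did overlap, and no macrophage marker was at 0 in any sample.

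The sum of fibroblast markers was 331, 343 and 198 FPKM in WT 1, 2 and 3 and 131, 174 and 203 FPKM in Apelin-KO 1, 2 and 3. Both Mmp2 and Timp2 had the same order of samples as this sum, except that WT 1 and WT 2 changed places. Of the 6 fibroblast markers tested, all were higher in WT ECs, 5 of them at an unadjusted p-value under 0.05 and 0 at an adjusted p-value under 0.05 in limma, with a median log2 fold change of 0.67. Dcn, which encodes the matrix proteoglycan decorin, was 35.8 ± 5.48 FPKM in WT and 19.5 ± 5.35 FPKM in Apelin-KO ECs (SD, n = 3 each), all WT samples being above all Apelin-KO samples. Fap, a defining marker of activated fibroblasts, went the other way on very low values, at 0.0780, 0.133 and 0.0430 FPKM in WT 1, 2 and 3 and 0.468, 0.427 and 0.337 FPKM in Apelin-KO 1, 2 and 3. The pericyte markers were lowest in WT 2 and WT 1, at 136 and 167 FPKM, then 178 FPKM in WT 3, and between 184 and 211 FPKM in Apelin-KO ECs. Of the 6 pericyte markers tested, 5 were lower in WT ECs by log2 fold change, of which Rgs5 passed an unadjusted p-value under 0.05. Rgs5 was 3.44 ± 0.246 FPKM in WT and 7.78 ± 0.923 FPKM in Apelin-KO ECs (SD, n = 3 each, limma adjusted p = 0.214), with groups that did not overlap. The part of these markers in the differences of Mmp9, Mmp2 and Timp2 was not tested. In bulk samples, fewer cells of a type and less RNA per cell cannot be told apart. Mmp14 did not follow either sum, since it was high in Apelin-KO 2 and Apelin-KO 3 and lowest in WT 2.

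**Figure D4:**
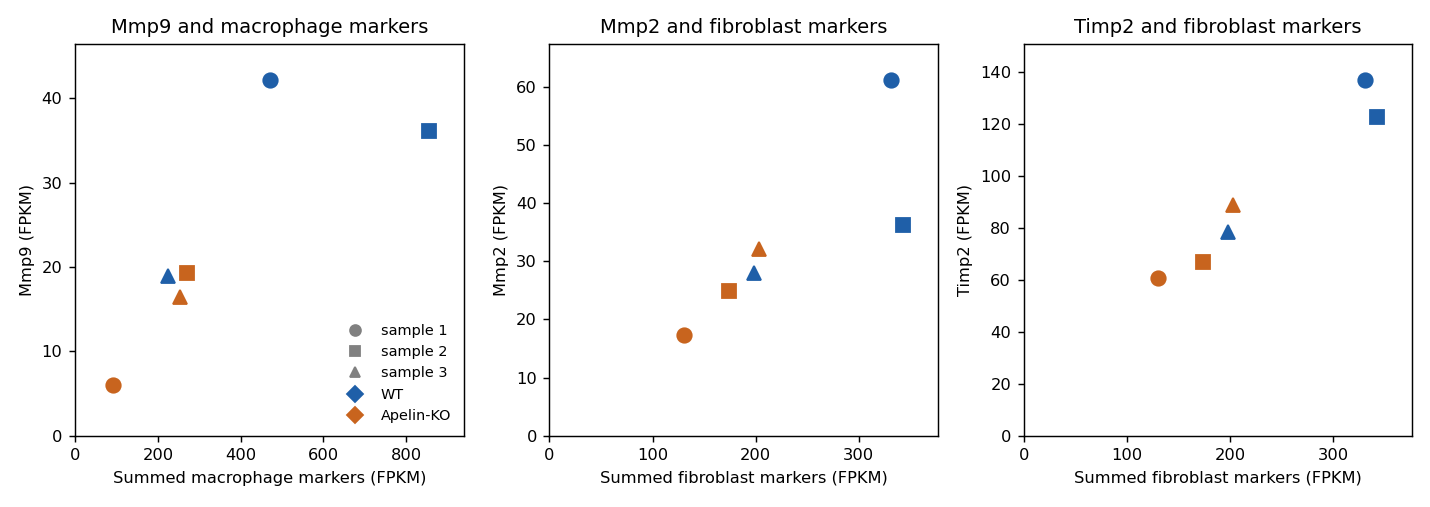
FPKM of Mmp9 against the sum of 12 macrophage markers, and of Mmp2 and Timp2 against the sum of 8 fibroblast markers, with one point per sample (WT in blue, Apelin-KO in orange). The points with low sums are low on the vertical axis in each panel, and WT 1 and WT 2 stand at the upper right; these pairs were picked after the values were seen.

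The other genes of the family were all lower than Mmp14, and most stayed under 1 FPKM. Of the 16 other MMP genes, 5 were listed at 0 in all samples and 4 averaged 1 FPKM or more, of which 0 passed an unadjusted p-value under 0.05 in limma. Mmp15, a second membrane-type MMP, was 24.7 ± 4.39 FPKM in WT and 28.1 ± 2.71 FPKM in Apelin-KO ECs (SD, n = 3 each). Mmp28 was 5.20 ± 0.655 FPKM (SD, n = 3) and 5.74 ± 1.12 FPKM (SD, n = 3), and Mmp11, known from stromal fibroblasts, was 3.55 ± 1.18 FPKM (SD, n = 3) and 2.23 ± 0.497 FPKM (SD, n = 3), in WT and Apelin-KO ECs. Mmp25 was 0.969 ± 0.200 FPKM in WT and 1.54 ± 0.446 FPKM in Apelin-KO ECs (SD, n = 3 each). Mmp8, a collagenase of neutrophils, reached 0.0490 FPKM in 1 sample only. Timp4 stayed at 0.485 ± 0.280 FPKM in WT and 0.461 ± 0.274 FPKM in Apelin-KO ECs (SD, n = 3 each).

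Of 14 genes tested that activate, hold or clear MMPs, 1 was higher in WT ECs and 0 were lower at an unadjusted p-value under 0.05, and 0 passed the adjusted threshold in limma. By log2 fold change 6 were higher and 8 were lower, with a median of -0.10. The gene that passed the unadjusted threshold was Cd44, a hyaluronan receptor on which MMP9 can dock. It was 12.7, 18.4 and 6.69 FPKM in WT 1, 2 and 3 and 3.36, 5.88 and 5.21 FPKM in Apelin-KO 1, 2 and 3, 1.15 higher on the log2 scale (SE 0.34, limma adjusted p = 0.501). Its samples did not overlap, as for 1 other gene of the 14 that was lower in WT ECs, and WT 1 and WT 2 were again the highest.

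Among matrix substrates of MMPs, 3 of the 15 tested were higher and 1 was lower in WT ECs at a p-value under 0.05 before adjustment, and 0 passed the adjusted threshold in limma. By log2 fold change 6 were higher and 9 were lower, with a median of -0.16. The groups did not overlap for 2 genes that were lower and 0 that were higher in WT ECs, and the sum of all 16 lay between 4315 and 5459 FPKM in WT ECs and between 5481 and 5958 FPKM in Apelin-KO ECs. The genes that passed with a higher level, all with overlapping groups, were Col3a1 and Col1a1, chains of interstitial collagens that also stand in the fibroblast list, and Spp1 (osteopontin). Col1a1 was 142 ± 48.7 FPKM in WT and 83.4 ± 21.0 FPKM in Apelin-KO ECs (SD, n = 3 each). The gene that passed with a lower level was Nid1, a linker of the vascular basement membrane, at 411 ± 39.9 FPKM in WT and 492 ± 9.57 FPKM in Apelin-KO ECs (SD, n = 3 each). Of 13 AP-1, NF-kB and ETS genes, whose products are known regulators of MMP promoters, Fosl1 alone passed an unadjusted p-value under 0.05, at 2.87, 3.36 and 1.77 FPKM in WT 1, 2 and 3 and 0.810, 1.81 and 1.38 FPKM in Apelin-KO 1, 2 and 3. Its adjusted p-value in limma was 0.506. The log2 fold change was below 0 for 11 of these 13 genes (median -0.19). The groups of Fosl1 overlapped, while those of 1 other gene that was higher and 2 that were lower in WT ECs did not.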

How the data were processed

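RNA-sequencing data of sorted tumor ECs from 3 WT and 3 Apelin-KO samples were used. Stranded mRNA libraries were read by the authors as single ends of 75 bases, and mapped to mm10. FPKM were deposited for every gene symbol. The submitters' processing notes list TopHat2 2.1.1, Bowtie2 2.2.4, SAMtools 1.0 and Cufflinks 2.2.1, while the study's methods name other versions of the mapping tools. The annotation and filters are not given in the sources used here.

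FPKM were used as deposited, as log2(FPKM + 1). Genes averaging 1 FPKM or more entered limma 3.58.1, run under R 4.3.3 (two-sided moderated test, no block, Benjamini-Hochberg over 10964 genes). Tested on simulated data made for this comparison with 10964 genes, it called 86.67% of genes changed 2-fold and 98.5% of genes changed 4-fold. The simulated noise was drawn for each gene alone, without the differences in cell markers seen between the samples. These shares are averages over genes picked from all those tested. They do not give the share for genes as variable as Mmp9. Depth was estimated from 3745 genes with 1 annotated transcript, as the depth at which low FPKM came nearest to whole reads with 200-base fragments. Between 69.7% and 72.9% of these values were then at most 0.1 from whole reads (20% by chance at a fixed depth). The depth was chosen to make this share largest, so the share is not a test of the depth. The steps depend on transcript length, and no count test was run.

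Named are the 10 genes of the set, Apln, and of each of 5 gene lists and 6 marker lists those past an unadjusted p-value under 0.05 (at most 6 a list) or, where none passed, the 3 with the highest mean. Only examples are printed. Fap, Cldn3, Cxcr2, Mmp1b, Mmp8, Mmp25, Mmp27, Gapdh, Ppia, Tmem198b, Syn1 and Syn3 fall outside this rule and were chosen once their values had been seen. The genes most like Mmp14 and Timp3, the MMP and the TIMP with the highest mean, were taken by Pearson r. The rule for the 10 genes used no value, but this family and the lists were chosen with earlier results of these data known. Alternatives changed the pseudocount, filter, scaling, variance, block and samples. Positions come from GENCODE M21 (GRCm38).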

Additional observations from a re-analysis of the deposited data

How the results depend on the processing

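None of the 6 genes tested had an adjusted p-value under 0.05 in any of 14 alternatives in limma. Their adjusted p-values ranged from 0.267 to 0.939 for Mmp9, from 0.172 to 0.939 for Timp2 and from 0.347 to 0.939 for Mmp2. Mmp9, Mmp2, Timp1 and Timp2 kept their direction in all 14. Leaving out single samples gave log2 fold changes from -0.20 to 0.090 for Mmp14 and from -0.37 to 0.086 for Timp3, so that both turned in direction, and from 0.75 to 1.56 for Mmp9, from 0.39 to 0.94 for Mmp2, from 0.46 to 0.86 for Timp2 and from 0.05 to 0.22 for Timp1. The other 8 alternatives turned no direction. At an unadjusted p-value under 0.05, 2 of these genes were higher in WT ECs and 0 were lower. The number higher was 3 without the filter on mean FPKM (Mmp3 in addition). It was 0 with the variance of each gene alone, 1 with the replicate block (Mmp9), and 0 to 3 with each sample left out. It was 0 without WT 1, without WT 2 or without Apelin-KO 1 and 3 without WT 3 or without Apelin-KO 3; fewer samples also leave fewer degrees of freedom.

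Over all genes, 1 had an adjusted p-value under 0.05. There were 2 without the filter, with a filter at 5 FPKM, with samples scaled to the same median and with an intensity trend, 0 with the variance of each gene alone, and 0 to 3 with each sample left out. At an unadjusted p-value under 0.05, genes higher in WT ECs numbered 567. There were 330 with the filter at 5 FPKM, where fewer genes were tested, 376 with the variance of each gene alone, and 312 to 743 with each sample left out. Of the genes over 2-fold higher in WT ECs, 84 in number, there were 157 with a pseudocount of 0.1 and 46 with the filter at 5 FPKM. Those over 2-fold lower in WT ECs numbered 9, and 24 with a pseudocount of 0.1 and 6 with the filter at 5 FPKM. They numbered 8 to 18 with each sample left out, and without Apelin-KO 1 there were 30 higher and 16 lower. Genes lower in WT ECs numbered 466, and 224 to 537 with each sample left out. The excess of higher over lower genes turned around under some alternatives, with 501 higher and 569 lower when samples were scaled to the same median, 494 and 552 with quantile normalization, 330 and 397 with the filter at 5 FPKM, and 376 and 407 with the variance of each gene alone. Why the other counts moved was not tested. Same-numbered WT and Apelin-KO samples had correlations of their deviations of -0.14, 0.21 and -0.02, and different-numbered ones lay between -0.20 and 0.21. So few values cannot show whether the numbers pair the samples. With the replicate block 1 gene had an adjusted p-value under 0.05 in limma. Mmp3 and Mmp12 rest on few reads.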
